A study of Mus musculus with 24 samples.

Results

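H3K4me3, the trimethylation of histone H3 at lysine 4 that surrounds the start sites of active genes, was examined at 10 genes for subunits of Polycomb repressive complex 1 (PRC1). The genes were taken by name: the RING ligase genes Ring1 and Rnf2, the PCGF genes Pcgf1, Pcgf2, Bmi1, Pcgf3, Pcgf5 and Pcgf6, and the partner genes Bcor and Rybp. They are 10 of 21755 protein-coding genes in the annotation used and lie on 8 chromosomes. The rule that chose them used no measured value, but earlier results of these data were known when they were chosen. The group was named for variant PRC1, but Ring1, Rnf2, Pcgf2 and Bmi1 also encode subunits of the canonical complex.

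The study mapped CFP1, KDM2B, RNA polymerase II and H3K4me3 by ChIP-seq in mouse C127 cells, which are labelled as a mammary epithelial line. Its 24 samples fell into 12 groups, and 21 samples were not analysed here. The values below come from the H3K4me3 ChIP (3 replicates) of parental C127 cells, for which no transgene, treatment or time point is labelled and which were crosslinked with formaldehyde. These replicates are represented by a single list of peaks found in each of them. It holds 13451 peaks, of which 13447 lay on the 20 chromosomes used. The list holds positions only, so the heights of peaks, the spread between replicates and the read depth behind each peak are unknown, and no test was made. Because the cells were assayed in bulk, a mark present in every cell and a mark present in a fraction of cells cannot be told apart.

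The labelled cell type was checked against lists of marker genes, also chosen with earlier results of these data known. A peak lay at a start site of 1 of 10 epithelial marker genes, Esr1 (2320 bp), and at none of Krt8, Krt18, Krt19, Epcam, Cdh1, Cldn3, Cldn4, Cldn7 and Elf5. In contrast, 6 of 6 mesenchymal marker genes had such a peak, with a median width of 7227.5 bp, while 0 of 2 immune and 0 of 2 endothelial marker genes had one. Over all protein-coding genes the share was 49.4%, and 70.2% over those with a CpG island (defined below) at a start site. Each epithelial and mesenchymal marker gene had such an island. The immune and endothelial marker genes had none, so their counts are not comparable with the others. The defining epithelial markers of the labelled tissue were thus mostly without the mark, and the part of this in the values below was not tested.

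PRC1 is an E3 ligase that places a single ubiquitin on histone H2A. Its core is a RING1A or RING1B protein (genes Ring1 and Rnf2) bound to a PCGF protein, and the PCGF protein largely sets which partners join. In canonical complexes PCGF2 or BMI1 recruit CBX and PHC proteins, whereas variant complexes carry RYBP or its paralog YAF2 and can form around any PCGF protein. KDM2B brings the PCGF1 and BCOR complex to unmethylated CpG islands, so that Polycomb proteins and H3K4 methyltransferases act at the same class of element.

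All 10 genes carried H3K4me3 at a transcription start site (TSS). Peaks no further than 250 bp from the start of a GENCODE basic transcript were counted as TSS peaks. By the same rule, 49.4% of all protein-coding genes had a TSS peak, and 70.2% of those with a CpG island within 250 bp of a TSS. Each of the 10 genes had such an island, a stretch rich in C, G and the CpG dinucleotide, as did 14808 of all 21755 protein-coding genes.

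Widths of the widest TSS peak ran from 1858 bp at Pcgf6 to 12045 bp at Ring1, a 6.48-fold range, with a median of 3730 bp. The median over the 10747 protein-coding genes with a TSS peak was 3254 bp, with quartiles of 2410.5 and 4258 bp. Of the 10 genes, 8 lay above that median, all but Bcor and Pcgf6, and 3 were in the widest 10% (Ring1, Bmi1 and Pcgf2). In the plot of peak widths these 3 genes stand apart from the other 7, and they are the genes whose peak also reached the TSS of a neighbouring gene.

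**Figure D1:**
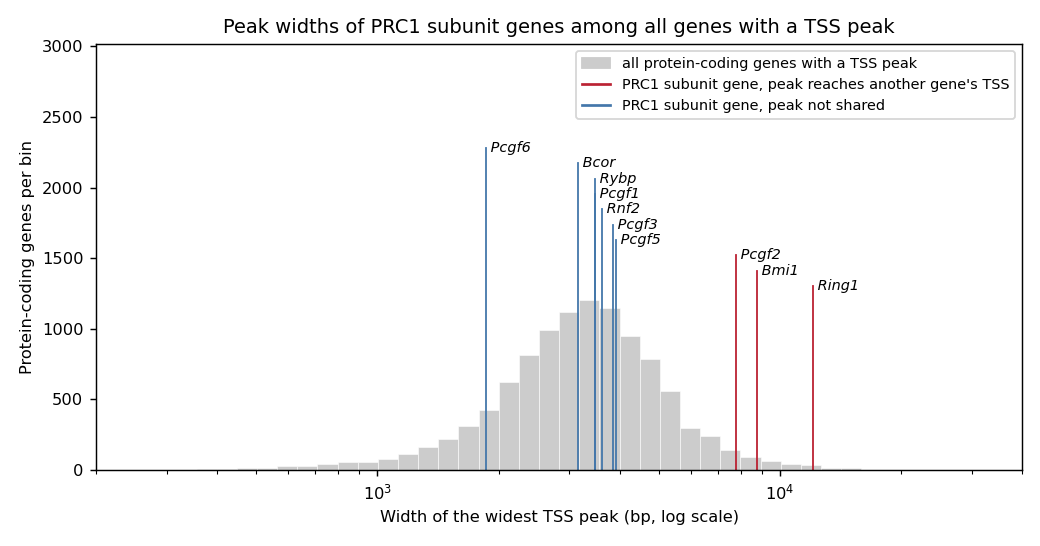
Histogram of the width of the widest H3K4me3 TSS peak (bp, log axis) over 10747 protein-coding genes, with a vertical line at each PRC1 subunit gene (line heights only separate the names). Ring1, Bmi1 and Pcgf2 (red, peak shared with another gene's TSS) lie at 7790 to 12045 bp, and the 7 other genes (blue) at 1858 to 3920 bp.

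Of the paralog pairs compared (Ring1 and Rnf2, Bmi1 and Pcgf2, Pcgf5 and Pcgf3), the catalytic RING genes differed most in width. Ring1 lies on chromosome 17 (34020792 to 34024680, minus strand, mm10) and spans 3889 bp. Its peak ran from 34022339 to 34034383, 12045 bp, at the 99.5th percentile of width. Rnf2, which encodes the main H2A ligase in many cell types, lies on chromosome 1 (151469405 to 151500955, minus strand). The Rnf2 peak ran from 151498073 to 151501680, 3608 bp, at the 60.2nd percentile, and held all 3 of the gene's TSSs. The Ring1 peak was thus 3.34 times as wide.

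The difference between the RING genes lay upstream. From its TSS at 34024680 the Ring1 peak reached 9703 bp upstream and 2341 bp downstream into the gene. From the most upstream Rnf2 TSS (151500955) the peak reached 725 bp upstream and 2882 bp downstream. Upstream reach was therefore 13.4 times as long at Ring1 as at Rnf2, whereas downstream reach at Ring1 was 0.812 times that at Rnf2.

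The long upstream part of the Ring1 peak covered the starts of 5 other genes. Closest was Gm26940, an lncRNA gene on the same strand whose TSS lay 390 bp upstream. Next came H2-Ke6, which encodes a hydroxysteroid dehydrogenase, with 3 TSSs between 3362 and 3376 bp upstream on the same strand. The lncRNA gene Gm20427 (6900 bp) and the zinc transporter gene Slc39a7 (6940 and 6982 bp) followed, also on the minus strand. Rxrb, which encodes a retinoid X receptor, started 7132 to 7721 bp upstream and ran in the opposite direction. Within the peak lay 8 separate CpG islands with a summed length of 5297 bp, of which the island at the Ring1 TSS (34024051 to 34025433) made up 1383 bp.

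The promoters of the genes with the widest and the narrowest peak are shown to compare their CpG content. Each line gives the 150 bases before the TSS from 5′ to 3′ on the gene's strand, from RefSeq sequence of GRCm38.p6 (the mm10 assembly), with every CpG in capitals. Ring1 is chr17:34024681-34024830 (minus strand) and Pcgf6 is chr19:47050905-47051054 (minus strand).
Ring1: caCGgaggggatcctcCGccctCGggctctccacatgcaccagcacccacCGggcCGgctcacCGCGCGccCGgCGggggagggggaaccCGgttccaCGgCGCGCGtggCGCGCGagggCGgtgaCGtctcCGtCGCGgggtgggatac
Pcgf6: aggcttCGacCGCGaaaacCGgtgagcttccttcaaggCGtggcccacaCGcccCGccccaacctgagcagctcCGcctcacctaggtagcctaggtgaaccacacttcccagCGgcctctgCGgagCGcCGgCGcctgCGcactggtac
The Ring1 stretch held 23 CpGs at a GC content of 77.3%, and the Pcgf6 stretch held 14 at 67.3%. Within 250 bp on either side of the TSS the counts were closer, 57 CpGs at Ring1 (82.3rd percentile among genes with a TSS peak) and 46 at Pcgf6 (62.1st percentile). Peak width differed 6.48-fold between the same genes.

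**Figure D2:**
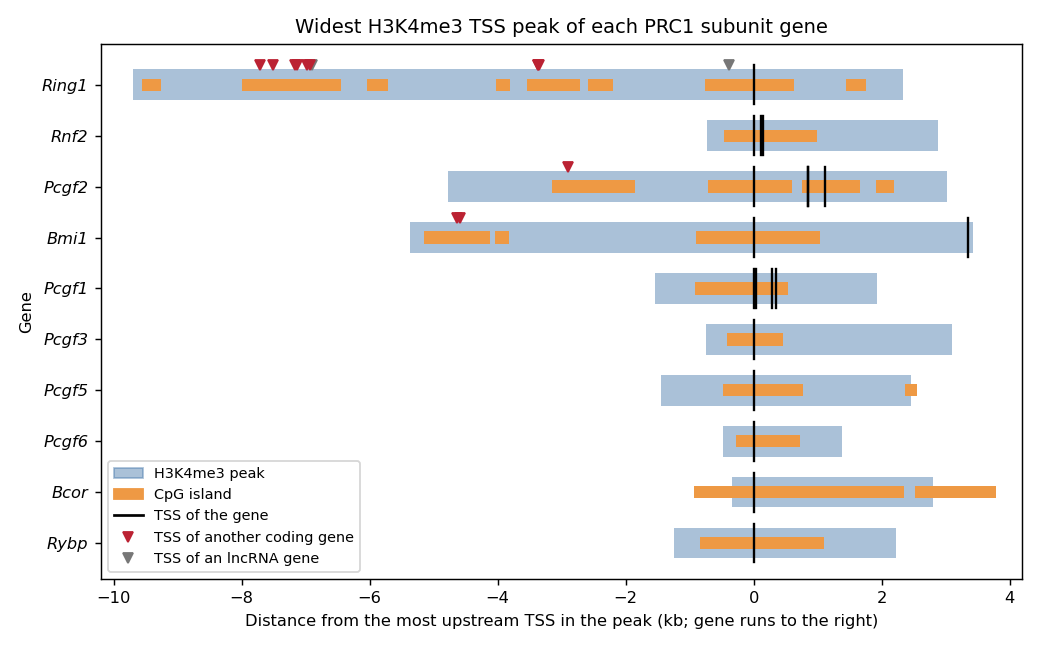
Map of the widest H3K4me3 TSS peak of each gene (blue bar) with CpG islands (orange), the gene's own TSSs (black ticks) and TSSs of other genes (triangles, red for coding and grey for lncRNA), against the distance in kb from the most upstream TSS in the peak, with the gene running to the right. The Ring1 peak extends 9703 bp to the left over the starts of 5 other genes, and the Bmi1 and Pcgf2 peaks each extend over the start of a coding neighbour.

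Pcgf2 and Bmi1, the PCGF paralogs that serve canonical PRC1, had the next widest peaks. Pcgf2 (chromosome 11, 97688823 to 97700497, minus strand), also known as Mel18, had a peak from 97697477 to 97705266, 7790 bp, at the 97.3rd percentile. Bmi1 (chromosome 2, 18677018 to 18686629, plus strand), known as a repressor of the Ink4a locus, had a peak from 18671654 to 18680442, 8789 bp, at the 98.2nd percentile. The paralogs were alike in width, and in reach when measured from GENCODE basic starts: the ratio of Bmi1 to Pcgf2 was 1.13 for width, 1.12 for upstream reach (5364 against 4769 bp) and 1.13 for downstream reach (3424 against 3020 bp). With RefSeq starts added, the most upstream Pcgf2 start moved and its reach became 2832 bp upstream and 4957 bp downstream, while that of Bmi1 stayed the same.

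Both peaks crossed to a neighbour, in different orientations. The Pcgf2 peak reached Psmb3, a proteasome subunit gene that starts 2902 bp upstream on the opposite strand. The Bmi1 peak reached Commd3, a COMM domain gene that starts 4634 and 4595 bp upstream on the same strand and ends before Bmi1 begins. At Bmi1 the peak covered 35.6% of the gene and held both of its TSSs. The second of these, at 18680372, had 1 CpG within 250 bp and no island, and the peak ended 70 bp past it. At Pcgf2 the peak held 4 of 5 TSSs and covered 25.9% of the gene. The TSS it lacked, at 97692407, had 8 CpGs within 250 bp, and the closest peak, at the neighbouring gene Cisd3, was 4472 bp away.

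The 4 remaining PCGF genes, which form variant complexes only, had narrower peaks. Pcgf1 (chromosome 6, 83078346 to 83080855, plus strand) encodes the PCGF protein of the KDM2B and BCOR complex. Its peak of 3474 bp (83076805 to 83080278, 56.4th percentile) held all 4 TSSs and covered 77.0% of this short gene of 2510 bp. The highest share of gene length under the widest TSS peak among the 10 genes was this value, and the lowest was 2.55% at Bcor.

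Pcgf3 and Pcgf5 encode close paralogs whose complexes act in X chromosome inactivation. Pcgf3 (chromosome 5, 108461232 to 108506976, plus strand) had a peak of 3852 bp (108460482 to 108464333, 66.2nd percentile), and the widest Pcgf5 peak was 3920 bp (67.9th percentile), 1.02 times as wide. The island at the Pcgf3 TSS was the shortest among the 10 genes, 862 bp with 64 CpGs, and its peak ran 2650 bp past the island's downstream edge.

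Pcgf6 (chromosome 19, 47033617 to 47050904, minus strand), the subunit that joins MGA, L3MBTL2 and E2F6 and is known for silencing germline genes, had the narrowest peak. It measured 1858 bp (47049529 to 47051386, 12.0th percentile), with 482 bp upstream and 1375 bp downstream of the TSS. Both values were below the lower quartiles over all genes with a TSS peak, 514 and 1563 bp. The island at its TSS was 995 bp long, so the narrow peak ran only 653 bp past the island downstream and 210 bp past it upstream.

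Pcgf5 was the only gene of the 10 with 2 separate TSS peaks, a pattern found in 2.64% of protein-coding genes with a TSS peak. The gene (chromosome 19, 36348309 to 36460970, plus strand) spans 112662 bp and has 4 basic TSSs. At the first, 36348309, a peak of 3875 bp (36346591 to 36350465) lay over an island of 1677 bp. At the last, 36409748, a peak of 3920 bp (36408293 to 36412212) lay over an island of 1248 bp. The peaks thus differed little in width. The count of genes with separate TSS peaks depended on the transcripts used: with the comprehensive GENCODE set it was 2, Pcgf5 and Bcor. Over all protein-coding genes the count then rose from 284 to 562. With 1 TSS per gene the count among the 10 was 0, which that setting all but fixed: only 1 of all 21755 protein-coding genes then had 2 such peaks. The starts at 36379068 and 36379106 had no peak, no island and 9 CpGs each within 250 bp, and lay 28603 and 28641 bp from the nearest peak.

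The sequences before 3 of these starts are shown to compare starts of the same gene with and without a peak. Promoter 1 is chr19:36348159-36348308, promoter 2 is chr19:36409598-36409747 and the start without a peak, chosen after the values were seen, is chr19:36378956-36379105 (all plus strand, GRCm38.p6, RefSeq sequence, CpGs in capitals).
Pcgf5 promoter 1: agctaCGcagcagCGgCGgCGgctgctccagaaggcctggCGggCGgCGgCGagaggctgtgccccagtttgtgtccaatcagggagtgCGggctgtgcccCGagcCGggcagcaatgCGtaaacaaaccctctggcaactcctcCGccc
Pcgf5 promoter 2: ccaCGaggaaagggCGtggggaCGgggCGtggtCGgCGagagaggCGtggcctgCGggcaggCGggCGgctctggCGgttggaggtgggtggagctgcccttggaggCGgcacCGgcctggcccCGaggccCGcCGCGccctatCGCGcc
Pcgf5 start without a peak: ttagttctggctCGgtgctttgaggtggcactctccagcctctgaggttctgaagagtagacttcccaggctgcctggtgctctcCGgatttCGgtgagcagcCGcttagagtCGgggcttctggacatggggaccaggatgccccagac
Of these 150-base stretches, promoter 1 held 13 CpGs (GC content 68.7%), promoter 2 held 19 (78.0%) and the start without a peak held 5 (59.3%). Promoter 1 is divergent: Gm47735, an lncRNA gene on the opposite strand, starts 11 bp away within the same peak. By GENCODE basic starts, Pcgf5 was the only gene of the 10 with an opposite-strand TSS within 2 kb, compared with 31.8% of all genes with a TSS peak. This holds for basic starts only. With RefSeq starts added, the most upstream Pcgf2 start moved towards the opposite-strand gene Psmb3 (upstream reach 2832 in place of 4769 bp).

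**Figure D3:**
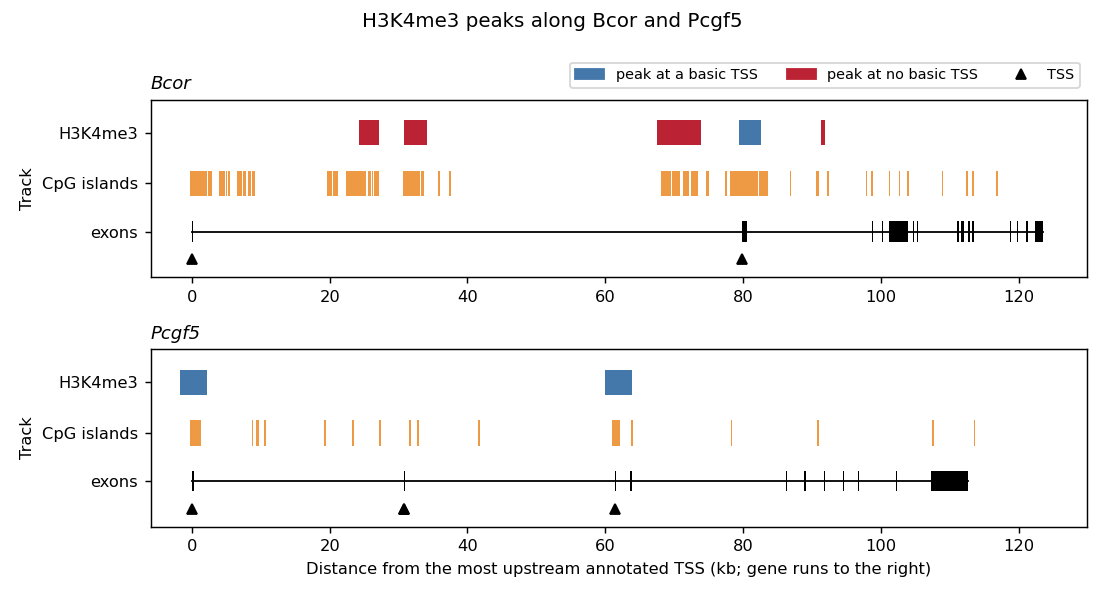
H3K4me3 peaks, CpG islands, exons and basic TSSs (triangles) along Bcor and Pcgf5, against the distance in kb from the most upstream annotated TSS, with each gene running to the right. Bcor has a peak (blue) at its downstream TSS, none at its upstream TSS, and 4 further peaks (red), and Pcgf5 has a peak at its first and last TSS and none at the starts between them.

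Among the partner genes, Rybp had the densest CpG island promoter and a peak near the middle of the range. RYBP binds the RING subunit and stimulates H2A ubiquitination. Its gene (chromosome 6, 100228565 to 100287485, minus strand) had 91 CpGs within 250 bp of the TSS, at the 99.7th percentile, and an island of 1932 bp with a GC content of 72.5%. The peak measured 3472 bp (100285264 to 100288735), at the 56.3rd percentile of width.

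Bcor, which encodes a BCL6 corepressor that scaffolds the PCGF1 complex, carried the mark in a different arrangement. The gene lies on chromosome X (12036740 to 12160355, minus strand), spans 123616 bp and has a pair of basic TSSs. Its TSS peak, 3148 bp (12077743 to 12080890, 46.9th percentile), lay at the downstream TSS (12080553). There the island was 3279 bp long with 323 CpGs, the longest TSS island among the 10 genes. Islands made up 94.7% of the peak, against 22.4% to 55.6% at the other 9 genes. On the upstream side the island, which ran from 12078206 to 12081484, extended beyond the edge of the peak at 12080890, only 337 bp past the TSS.

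The upstream Bcor TSS had no peak although it too lay in an island. This start, at 12160355, had an island of 1060 bp and 40 CpGs within 250 bp, equal to the median of genes with a TSS peak (40.0). The nearest peak was 24198 bp away. The 150 bases before it are shown because, of the 4 starts of these genes that lacked a peak, only this lay in an island (chrX:12160356-12160505, minus strand, GRCm38.p6, RefSeq sequence, CpGs in capitals). This stretch was chosen after the values were seen and held 9 CpGs at a GC content of 59.3%.
Bcor start without a peak: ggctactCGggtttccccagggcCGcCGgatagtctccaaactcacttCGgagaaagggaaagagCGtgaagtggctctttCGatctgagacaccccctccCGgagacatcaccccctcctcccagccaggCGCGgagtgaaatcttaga

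Between its first and last exons Bcor carried 4 further peaks at no basic TSS, all of them intronic. From the 5′ side of the gene, these measured 2977 bp (12133181 to 12136157), 3297 bp (12126245 to 12129541), 6385 bp (12086435 to 12092819) and 576 bp (12068405 to 12068980). The 3 wider peaks held 2428, 2660 and 4728 bp of CpG island, and the narrowest held none. The peak of 6385 bp was wider than the Bcor TSS peak itself and ended 5882 bp from that TSS. The peak of 3297 bp covered the starts of 2 Bcor transcripts found only in the comprehensive GENCODE set.

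No other gene of the 10 had a peak inside it away from a TSS. Among all protein-coding genes with a TSS peak, 8.55% had at least 1 further peak of this kind, and 0.279% (30 genes) had 4 or more. The cutoff of 4 is the count at Bcor itself, and it holds for basic TSSs only. The Bcor peak of 3297 bp lay at comprehensive and RefSeq starts of Bcor, and that of 6385 bp at a RefSeq start of Gm46687. These shares were not recomputed with such starts. Bcor is long, and of the 1991 genes with a TSS peak and 0.5 to 2 times its length, 17 (0.854%) had as many further peaks.

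Across the 10 genes, 20 of 24 basic TSSs lay within 250 bp of a peak. Those with a peak had from 1 to 91 CpGs within 250 bp and those without had from 8 to 40, so the ranges overlapped. Of the 20 with a peak, 19 had an island, the exception being the second Bmi1 start. At least 1 TSS without a peak was found at 3 of the 10 genes (Pcgf2, Pcgf5 and Bcor), compared with 14.2% of all protein-coding genes with a TSS peak. Counted by TSS, 4 of the 24 lacked a peak, compared with 2282 of 22463 over all protein-coding genes with a TSS peak. The share of TSSs with a peak that had an island was not compared with all genes.

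Sharing of a peak between genes went with width. The widest TSS peak of Ring1, Pcgf2 and Bmi1 reached the TSS of another gene, and in each case of a coding gene. Of all genes with a TSS peak, 34.0% had a widest peak that reached another coding or lncRNA gene, and 23.7% one that reached another coding gene, so that 3 of 10 lay near these shares. These 3 shared peaks measured 7790 to 12045 bp, compared with a median of 3863 bp over the 3659 protein-coding genes with a shared peak. The first Pcgf5 peak, of 3875 bp, was shared as well, with the lncRNA gene Gm47735. Widest TSS peaks that were not shared had a median of 3474 bp (7 genes), compared with 2955 bp over 7088 genes. Compared only with genes whose peak is not shared, Pcgf5 (76.3rd), Pcgf3 (74.7th) and Rnf2 (69.2nd percentile) were the widest and Pcgf6 (15.7th percentile) the narrowest.

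Over all 10 genes the spread in width lay mainly on the upstream side, where the 3 shared peaks extend. Upstream reach ran from 337 bp at Bcor to 9703 bp at Ring1, a 28.8-fold range, with a mean of 2637.6 ± 3047.5 bp (SD over 10 genes). Downstream reach ran from 1375 bp at Pcgf6 to 3424 bp at Bmi1, a 2.49-fold range, with a mean of 2557 ± 613.5 bp. Median downstream reach was 2637 bp, compared with 2138 bp over all genes with a TSS peak, and 8 of the 10 genes exceeded that value. The peak extended further into the gene than upstream at all 7 genes with an unshared peak and at none of the 3 with a shared peak. With RefSeq starts added, the direction turned at Pcgf2, a shared peak, so that 8 of the 10 genes had the longer side downstream. Upstream reach then also changed at Pcgf1, from 1541 to 747 bp, and at Bcor, whose widest TSS peak became another, from 337 to 1116 bp. Smaller changes came at Rnf2, from 725 to 689 bp, and at Pcgf6, from 482 to 447 bp. With comprehensive GENCODE starts upstream reach was 1064 bp at Pcgf1, 1141 bp at Bcor and 480 bp at Pcgf6. Over all protein-coding genes with a TSS peak, 83.5% had the longer side downstream.

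Width went with upstream reach over the 10 genes (Pearson r 0.983, Spearman rho 0.855) more than with downstream reach (r 0.381, rho 0.552). Over the 7 genes with an unshared peak, r was higher for downstream reach (0.739) than for upstream reach (0.527), and rho was 0.571 for both. Over all 10747 genes downstream reach also had the higher r, 0.812 against 0.677. Each reach is a part of the width, so these values describe where the width lay.

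**Figure D4:**
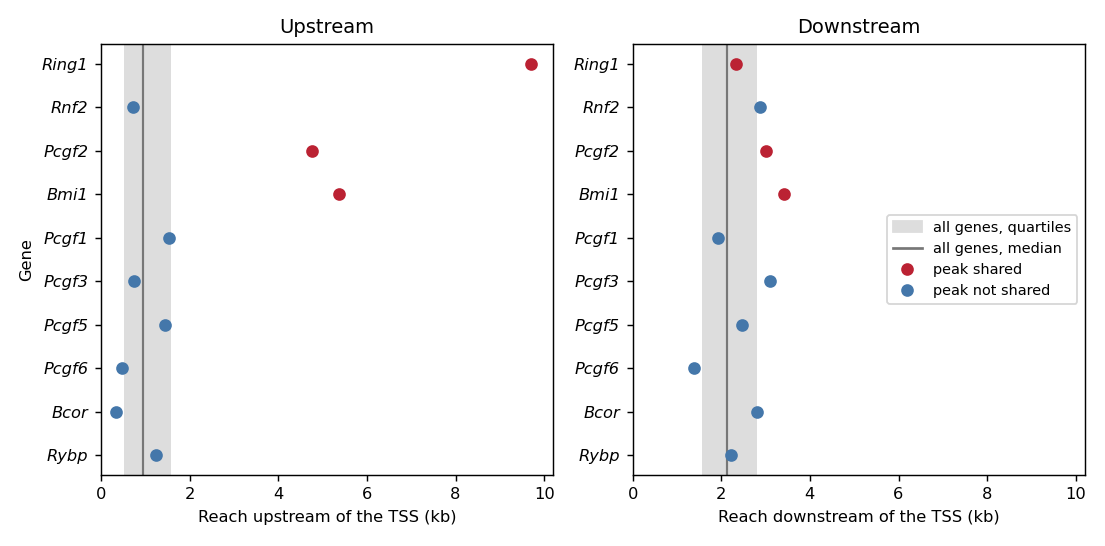
Reach of the widest H3K4me3 TSS peak upstream (left) and downstream (right) of the most upstream TSS in it, in kb, for each gene (red, peak shared with another gene's TSS; blue, not shared), with the median (line) and quartiles (band) over all protein-coding genes with a TSS peak. Upstream, Ring1, Bmi1 and Pcgf2 lie at 4769 bp or more and the others at 1541 bp or less, while downstream all 10 lie between 1375 and 3424 bp.

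At most of these genes the peak held more CpG island, summed over separate islands, than the median over all genes. The summed length had a median of 1690 bp, compared with 1137 bp over all genes with a TSS peak. Of the 10 genes, 8 exceeded 1137 bp, all but Pcgf3 and Pcgf6. The sum can include islands at neighbouring starts, as in the 8 islands under the Ring1 peak. Length of the TSS island alone was not compared with all genes. The number of CpGs within 250 bp of the TSS had a median of 56.0, against 40.0 over all genes with a TSS peak, and was lowest at Pcgf1 (41). Over the 10 genes, width and summed island length had a Pearson r of 0.887 and a Spearman rho of 0.527. These measures share the peak itself, since a wider interval can hold more island. Over the 7 genes with an unshared peak, r was 0.0310 and rho was -0.357, so the relation over all 10 rested on Ring1, Bmi1 and Pcgf2. Over all 10747 genes r was 0.670 and rho was 0.616.

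In the plot of width against island length, Pcgf3, Pcgf6 and Bcor lay outside the quartiles of genes with a like amount of island, Pcgf3 above and Pcgf6 and Bcor below. Bcor had 2980 bp of island in a peak of 3148 bp, while genes with 2500 to 3000 bp of island had a median width of 5377 bp and a lower quartile of 4454 bp. Pcgf3 had 862 bp of island in a peak of 3852 bp, while genes with 500 to 1000 bp of island had a median width of 2555.5 bp and quartiles of 1980 and 3212.8 bp. Pcgf6, with 995 bp of island, falls in the same bin with a width of 1858 bp. Ring1 had 5297 bp of island in a peak of 12045 bp, while genes with more than 3000 bp of island had a median width of 7790 bp and an upper quartile of 10495 bp. That bin has no upper limit, so it does not show whether the Ring1 peak was wide for its amount of island.

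**Figure D5:**
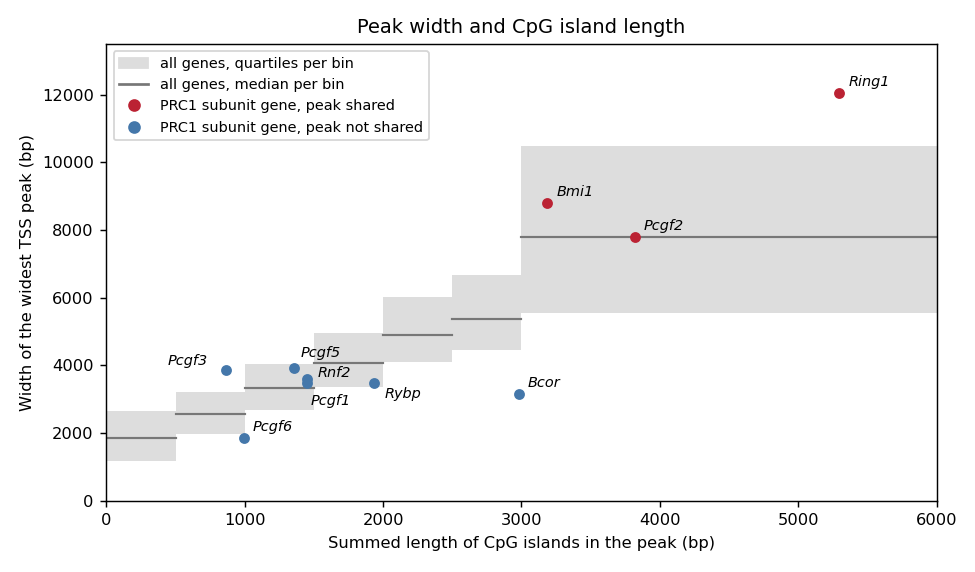
Width of the widest H3K4me3 TSS peak (bp) against the summed length of CpG islands in it (bp) for each gene (red, peak shared; blue, not shared), with the median (line) and quartiles (grey) of all protein-coding genes in bins of island length (the last bin holds all genes above 3000 bp). Bcor (2980 bp of island, width 3148 bp) and Pcgf6 (995 bp, 1858 bp) lie below the grey band of their bins, and Pcgf3 (862 bp, 3852 bp) and Ring1 (5297 bp, 12045 bp) above.

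Promoter motifs were searched on both strands in the RefSeq promoter sequences (250 bases before to 50 after the start), which held 11 promoters of 8 of the genes. Pcgf1 and Rybp had no entry there and were not searched. The E-box CACGTG, a site of MAX and MGA among other factors, was found at Bmi1 and Pcgf2 and in 7.15% of all 32851 promoters. The E2F6-like motif GGCGGGAA was found at Pcgf5 (2.19% of all promoters), as was the CCAAT box (37.4%), and the NRF1 motif GCGCATGC was found at Pcgf3 (2.71%). The ETS motif CCGGAAG (8.86% of all promoters), the YY1 motif AAGATGGC (2.75%) and the TATA box TATAAA (13.6%) were found at none of the 8. Each match is a description of letters in this window.

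Among 48 other Polycomb genes listed by complex, 46 had a TSS peak. The share was 49.4% over all protein-coding genes and 70.2% over those with a CpG island at a TSS. Median width was 3602.5 bp, close to the 3730 bp of the 10 PRC1 genes. The widest peak was shared with another gene in 13 cases, compared with 34.0% of all genes with a TSS peak. The number with 4 or more further peaks inside the gene, the count seen at Bcor, was 0. Over all genes with a TSS peak that share was 0.279%, so this 0 does not set these genes apart. All 20 other partners of variant PRC1 had a peak (median 3472.5 bp). The widest were those of Fbrs (12243 bp, shared with Prr14), Usp7 (5250 bp), Kdm2b (5115 bp, shared with the gene A930024E05Rik) and Bcorl1, the paralog of Bcor (4817 bp).

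Of 10 canonical PRC1 partners, 9 had a peak (median 3340 bp), among them Phc2 (4946 bp), Cbx2 (4686 bp) and Cbx6 (3684 bp, shared with Npcd), whereas Scml4 had none. All 12 PRC2 genes had a peak (median 4053 bp). The widest were those of Phf1 (10108 bp, a shared peak), Jarid2 (5301 bp), Aebp2 (5155 bp) and Rbbp4 (4667 bp, shared with Zbtb8os). PR-DUB removes the ubiquitin that PRC1 places, and 5 of its 6 genes had a peak (median 4369 bp): Foxk1 (4428 bp), Foxk2 (4398 bp), Asxl1 (4369 bp), Asxl2 (4018 bp) and Bap1, while Asxl3 had none. Of these 46 genes, only Fbrs had a wider peak than Ring1, and only Fbrs and Phf1 had wider peaks than Bmi1 and Pcgf2.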

How the data were processed

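H3K4me3 ChIP-seq of C127 cells (3 replicates) was used. Per the study's methods, the authors aligned reads to mm10 with bowtie2, discarded reads without a unique position, removed PCR duplicates with SAMtools, called peaks with MACS for each replicate against a matched control, retained those present in all replicates and joined those within 250 bp. Versions are not given in the sources used here. The deposited list holds positions only (chromosome, first and last base of each retained peak), with no score, count or p-value. Peak edges are limited by the length of the sheared fragments, and a promoter that recurs in the genome can lack a peak through the discarded reads.

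Starts were converted to 1-based positions. Peaks fitted the chromosome lengths of GRCm38.p6 (0 ran past an end), and neighbouring peaks were at least 251 bp apart. TSSs were those of basic transcripts of GENCODE vM21, for protein-coding as well as lncRNA genes (52518 TSSs, 9603 lncRNA genes). The widest TSS peak of each gene was measured from the most upstream TSS in it. CpG islands were the union of windows of 200 bp whose GC fraction reached 0.5 and whose CpG ratio, observed over expected, reached 0.6 (177629 islands). Percentiles are ranks among protein-coding genes with a TSS peak. The measures of peaks and islands were tested on simulated data. Computations used Python 3.11.15 with numpy 2.4.6, scipy 1.17.1 and matplotlib 3.10.9.

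All 10 PRC1 genes are described, with every gene whose TSS shares a peak with them or lies divergently within 2 kb, and, of each other Polycomb list, the 4 genes with the widest peak and those without a peak. A few genes covered by this rule are not reported here. The genes and lists were chosen with earlier results of these data known. Alternatives covered the TSS distance, the TSS set, the peak list and the island definition, and RefSeq TSSs were added after the data were seen.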

Additional observations from a re-analysis of the deposited data

How the results depend on the processing

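Over the alternatives run, 44 of 47 recomputed counts and medians for the 10 genes stayed within 1.5 times of the reported count or within the spread of the reported value. Not every alternative could move a value. The narrowest of the widest TSS peaks was 1858 bp, so the minimum peak width of 1000 bp could remove none of them. The exception was the number of genes with 2 or more separate TSS peaks, 1 as reported: it was 0 with 1 TSS per gene, 2 with every TSS of the comprehensive GENCODE set and 2 with RefSeq TSSs added, an alternative chosen after seeing the data. Both larger counts added Bcor, whose intronic peak of 3297 bp then lay at a TSS. Over all protein-coding genes the number also rose, from 284 as reported to 562 with the comprehensive set and 490 with RefSeq TSSs. With 1 TSS per gene it was 1 over all protein-coding genes, so the 0 was all but fixed by that alternative. With 1 TSS per gene, 9 of the 10 genes had a TSS peak, Bcor being the gene without. Of 69 recomputed widths of single genes, 66 were unchanged, and the others were 3875 bp for Pcgf5 with 1 TSS per gene and 3297 bp for Bcor with the comprehensive and with the RefSeq TSSs. Reach depends on the most upstream TSS: with RefSeq TSSs added, the Pcgf2 peak reached 2832 bp upstream and 4957 bp downstream, against 4769 and 3020 bp, and the number of genes with the longer side downstream was 8 in place of 7. Leaving out a replicate was not possible, because the 3 replicates are given as 1 list. No paired analysis was possible because the list carries no value per replicate. Peak height and sequencing depth are unknown, so the strength of the mark could not be compared.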

Other observations

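These features were singled out after their values were seen. The Ring1 peak also covered the microRNA genes Mir219a-1 and Mir219c, which were not among the TSSs counted. The Rnf2 peak overlapped Gm36527, a gene of the annotation class still to be experimentally checked. Downstream of Bmi1, a peak of 2471 bp (chromosome 2, 18688739 to 18691209) lay at no GENCODE TSS and held 1853 bp of CpG island, and RefSeq places a start of Gm46725 at it. The widest intronic Bcor peak, 6385 bp, lay at a RefSeq start of Gm46687.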
